A study of Mus musculus with 28 samples.

Results

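The RIG-I-like receptor genes are 5 genes of cytosolic RNA sensing, chosen by symbol: the sensors Ddx58, Ifih1 and Dhx58, the ubiquitin ligase gene Trim25 and the adaptor gene Mavs. Each symbol had 1 entry among the 54424 gene entries of the count tables, and all 5 passed the filter on low counts in each main comparison. They were followed in 28 libraries of cultured primary mouse microglia, the macrophages of the brain, from mice of 2 APOE genotypes. The cells had received tau, amyloid or neither, and their RNA was counted from 3′ ends. APOE3S/S cells, labelled Christchurch after the human APOE variant, gave 6 tau, 3 amyloid and 4 untreated libraries. APOE3 cells, labelled WT, gave 6 tau, 3 amyloid and 6 untreated libraries. Untreated stands here for the treatment label Control, and the labels used here give neither the form, dose and duration of tau and amyloid nor the age of the mice, the way the mice carry the alleles or a vehicle for the controls. Nothing says whether libraries of a group came from separate cultures or animals, so p-values measure the spread between these libraries, which may be technical.

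Library titles fall into 2 naming series, and what separates them is not stated. The SAN title series holds 17 libraries (all amyloid libraries, tau libraries 4 to 6 of each genotype, APOE3 untreated libraries 1 to 3 and APOE3S/S untreated libraries 1 and 2), and the second title series holds the other 11, without amyloid. Totals ran from 14.5 to 27.2 M counts per library (M for 1000000), with means of 16.8 ± 1.25 M in the SAN series and 22.5 ± 3.88 M in the second (SD). All 10 microglia markers were detected in all 28 libraries, with sums of 6071 to 9554 CPM (counts over the library total times 1000000). Of the 10, Csf1r (2018 to 3333 CPM) and C1qa (1660 to 4461 CPM) were the highest. Tmem119 ran from only 0.91 to 5.84 CPM and P2ry12 from 9.38 to 30.8 CPM. Several marker lists of other cell types moved with treatment. Monocyte markers were Ly6c2, Ccr2, Plac8 and Vcan. Their sums ran from 28.8 to 256 CPM in APOE3S/S tau, 155 to 233 CPM in APOE3S/S amyloid and 12.7 to 156 CPM in APOE3S/S untreated libraries, and from 61.3 to 240.3 CPM in APOE3 tau, 98.7 to 134 CPM in APOE3 amyloid and 18.0 to 58.8 CPM in APOE3 untreated libraries. Plac8 was at 0 in 24 of the 28 libraries, with a highest value of 0.263 CPM. Astrocyte markers (Gfap, Aqp4, Aldh1l1, Slc1a2 and Gjb6) summed to 22.3 to 71.6 CPM, with Gjb6 at 0 in 26 libraries. Aldh1l1 alone ran from 20.0 to 64.2 CPM, and Gfap and Aqp4 reached at most 8.30 and 8.41 CPM. Endothelial markers (Cldn5, Pecam1, Flt1, Vwf and Cdh5) summed to 83.0 to 249.6 CPM, with Cldn5 at 0 in all 28. Vwf (51.7 to 179 CPM) and Flt1 (24.7 to 69.4 CPM) led that sum, and Pecam1 and Cdh5 reached at most 3.28 and 2.94 CPM. Oligodendrocyte markers summed to 108 to 180 CPM and granulocyte markers to 2.30 to 21.5 CPM. Fibroblast markers (Col1a1, Col1a2, Dcn, Pdgfra and Lum) summed to 0.599 to 44.1 CPM and neuron markers to 0.443 to 2.89 CPM. APOE3S/S untreated library 2 stood apart from the other 3 of its group, with 156 CPM of monocyte markers against 12.7 to 38.7 CPM, and results that rest on it are given with and without it. The 3′ counts of these genes say nothing about the APOE genotype.

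RIG-I-like receptors are helicases that bind RNA in the cytosol, above all viral RNA, and start the production of type I interferon. RIG-I, encoded by Ddx58, binds the ends of short double-stranded RNA that carry phosphates, and MDA5, encoded by Ifih1, forms filaments on long double-stranded RNA. LGP2, encoded by Dhx58, lacks the signalling domains of the other sensors and tunes their activity. TRIM25 is a ubiquitin ligase that promotes RIG-I signalling, and MAVS is the adaptor on the outer mitochondrial membrane that RIG-I and MDA5 engage to activate the kinases TBK1 and IKKε, the transcription factors IRF3 and IRF7, and NF-κB. The sensor genes and Trim25 are themselves known to be induced by interferon, and microglia are among the brain cells that respond to it.

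The genes lie apart from each other in the GRCm38 genome (GENCODE M21 annotation). Ddx58 spans chr4:40203773-40239828 on the minus strand, Ifih1 chr2:62595798-62646255 on the minus strand, Dhx58 chr11:100694884-100704271 on the minus strand, Trim25 chr11:88999376-89020293 on the plus strand and Mavs chr2:131234063-131248025 on the plus strand. Exons of Dhx58 share 141 bases with the antisense gene Dhx58os, which had 265 counts over all libraries against 66971 for Dhx58. Whether counting used strand is not stated, so reads from the overlap cannot be told apart.

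Stretches around the transcription starts are shown because the members fall into those that changed with tau and Mavs, which did not pass the test. No promoter sequence was found for Dhx58, so it was neither shown nor searched. The sequences are RefSeq's for GRCm38.p6, on the strand of the gene, and the windows searched ran from 250 bases before to 50 bases after the start in RefSeq. That start is the one given above for Ifih1 and Mavs, and it lies 3 bases downstream of it for Ddx58 and 27 bases downstream, at base 88999403, for Trim25. Capitals mark a match to the core of the interferon-stimulated response element, GAAANNGAAA or TTTCNNTTTC on the other strand, and for Trim25 a match to the shorter AANNGAAA, or TTTCNNTT on the other strand, which overlaps that core and was chosen after the sequences were seen.
Ddx58, chr4:40239804-40239833: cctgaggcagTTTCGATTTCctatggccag
Ifih1, chr2:62646206-62646235: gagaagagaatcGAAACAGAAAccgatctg
Trim25, chr11:88999388-88999417: ctcctgttcagTTTCGATTccttcctcgct
Mavs, the 60 bases before its start, chr2:131234003-131234062: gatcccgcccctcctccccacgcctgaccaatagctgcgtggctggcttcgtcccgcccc

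The core was found in the windows of Ddx58, at bases 3 to 12 after the start, and Ifih1, at bases 33 to 42, and in 3.44% of all 32851 windows of 27025 genes. It was in neither the Trim25 nor the Mavs window. The shorter motif stood across the start of Trim25, from base −4 to base 4, and occurs in 23.9% of all windows. The core contains this shorter motif, so the Ddx58 and Ifih1 windows had to hold it. It was not found in the Mavs window. The gamma-activated site TTCNNNGAA, which reads the same on both strands and occurs in 8.3% of windows, was in none of the 4. The longest run shared by each pair of the 4 windows was searched for, so these runs were picked from the sequences and support no grouping. The Trim25 and Ddx58 windows share the 11 bases CAGTTTCGATT next to the start, a run present in 9 windows (0.0274%) in all. Those of Trim25 and Mavs also share 11 bases, CCGCCCCTCCT, a run present in 115 windows (0.35%). A match describes these letters only and shows neither a bound factor nor a cause.

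In APOE3S/S microglia tau raised Ddx58, Ifih1 and Trim25, where 2.12% of the 13902 genes tested rose. In APOE3 microglia it raised 4 of the 5 genes, all but Mavs, where 8.97% of the genes rose. Each log2 fold change is followed by its standard error in edgeR's quasi-likelihood fit, p-values were adjusted by the Benjamini-Hochberg method over all genes tested, and adjusted values under 0.05 were called. The data are bulk RNA, in which more RNA per cell and more cells of a type with high levels cannot be told apart. Where libraries of one group are said to lie above or apart from those of another, the share of all genes doing so was not counted. With few libraries in a group, such a separation arises readily by chance.

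Ddx58 in the 6 APOE3S/S tau libraries had a lowest of 222, a median of 298 and a highest of 415 CPM, against 102, 306, 76.8 and 106 CPM in untreated libraries 1 to 4. Untreated library 2, of the SAN series, was at 306 CPM, within the range of all tau libraries but below the 355 to 415 CPM of the SAN ones. The other 3 were below every tau library. The log2 fold change was 1.11 ± 0.28 (edgeR adjusted p = 0.0352), and 1.62 ± 0.25 without untreated library 2. Among APOE3 libraries Ddx58 had a lowest of 166, a median of 315 and a highest of 397 CPM with tau, against a lowest of 68.8, a median of 103 and a highest of 114 CPM untreated (6 libraries each). Every tau library lay above every untreated library. The log2 fold change there was 1.54 ± 0.25 (edgeR adjusted p = 0.000368), and 1.99% of the tested genes had a higher one.

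Ifih1 followed the same course. The APOE3S/S tau libraries had a lowest of 146, a median of 171 and a highest of 235 CPM, against 71.2, 187, 57.2 and 73.6 CPM in untreated libraries 1 to 4, and again library 2 alone reached into the tau range, while it was below the SAN tau libraries (192 to 235 CPM). The rise was 0.94 ± 0.24 on the log2 scale (edgeR adjusted p = 0.0391), and 1.39 ± 0.21 without that library. For APOE3 cells there were a lowest of 102, a median of 193 and a highest of 223 CPM with tau and a lowest of 54.8, a median of 75.2 and a highest of 83.5 CPM untreated, without overlap. Here the rise was 1.26 ± 0.22 (edgeR adjusted p = 0.000557).

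Dhx58 stood at a lowest of 125, a median of 169 and a highest of 195 CPM in APOE3S/S tau libraries, against 57.6, 178, 50.8 and 98.1 CPM in untreated libraries 1 to 4. Library 2 lay inside the range of all tau libraries here too and below that of the SAN ones (189 to 195 CPM), and library 4 was above libraries 1 and 3. The log2 fold change of 0.77 ± 0.28 did not pass (edgeR adjusted p = 0.132). Without APOE3S/S untreated library 2 it was 1.24 ± 0.27 (edgeR adjusted p = 0.00913), so that 4 of the 5 members were then called, where 4.33% of genes rose. APOE3 cells had a lowest of 101, a median of 166 and a highest of 187 CPM with tau, against a lowest of 38.4, a median of 56.1 and a highest of 73.0 CPM untreated, and the groups did not overlap. Dhx58 rose by 1.49 ± 0.26 there (edgeR adjusted p = 0.000571).

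Trim25 had smaller log2 fold changes than the sensors. The APOE3S/S libraries had a lowest of 367, a median of 398 and a highest of 483 CPM with tau, against 386, 406, 246 and 227 CPM in untreated libraries 1 to 4. Untreated libraries 1 and 2, both of the SAN series, lay within the range of all tau libraries but below the SAN ones (412 to 483 CPM), and libraries 3 and 4 lay below every tau library. Within each title series, then, tau and untreated APOE3S/S libraries did not overlap for Ddx58, Ifih1, Dhx58 or Trim25. A series holds only 3 tau and 2 untreated APOE3S/S libraries, and the share of all genes without overlap was not counted. Mavs did not overlap in the SAN series either, with tau lower (57.38 to 63.34 CPM against 63.55 to 65.82 CPM). The rise of Trim25 was 0.42 ± 0.11 (edgeR adjusted p = 0.0369), and 0.53 without APOE3S/S untreated library 2. For APOE3 cells the tau libraries had a lowest of 373, a median of 404 and a highest of 429 CPM, against a lowest of 244, a median of 296 and a highest of 351 CPM in untreated ones, without overlap, a rise of 0.49 ± 0.096 (edgeR adjusted p = 0.00124).

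Mavs, the adaptor gene, did not pass the test in either genotype. APOE3S/S libraries had a lowest of 52.2, a median of 55.9 and a highest of 63.3 CPM with tau, against 65.8, 63.5, 53.0 and 51.5 CPM in untreated libraries 1 to 4, a log2 fold change of −0.029 ± 0.080 (edgeR adjusted p = 0.883). APOE3 libraries had a lowest of 47.6, a median of 54.7 and a highest of 69.9 CPM with tau, against a lowest of 42.6, a median of 56.5 and a highest of 66.0 CPM untreated, a log2 fold change of 0.11 ± 0.072 (edgeR adjusted p = 0.334). The ranges with and without tau overlapped over most of their width, although the SAN tau libraries of APOE3S/S cells (57.4 to 63.3 CPM) were below the SAN untreated ones. Over all 28 libraries Mavs ran from 42.6 to 73.0 CPM, whereas Ddx58 ran from 68.8 to 452 CPM.

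**Figure D1:**
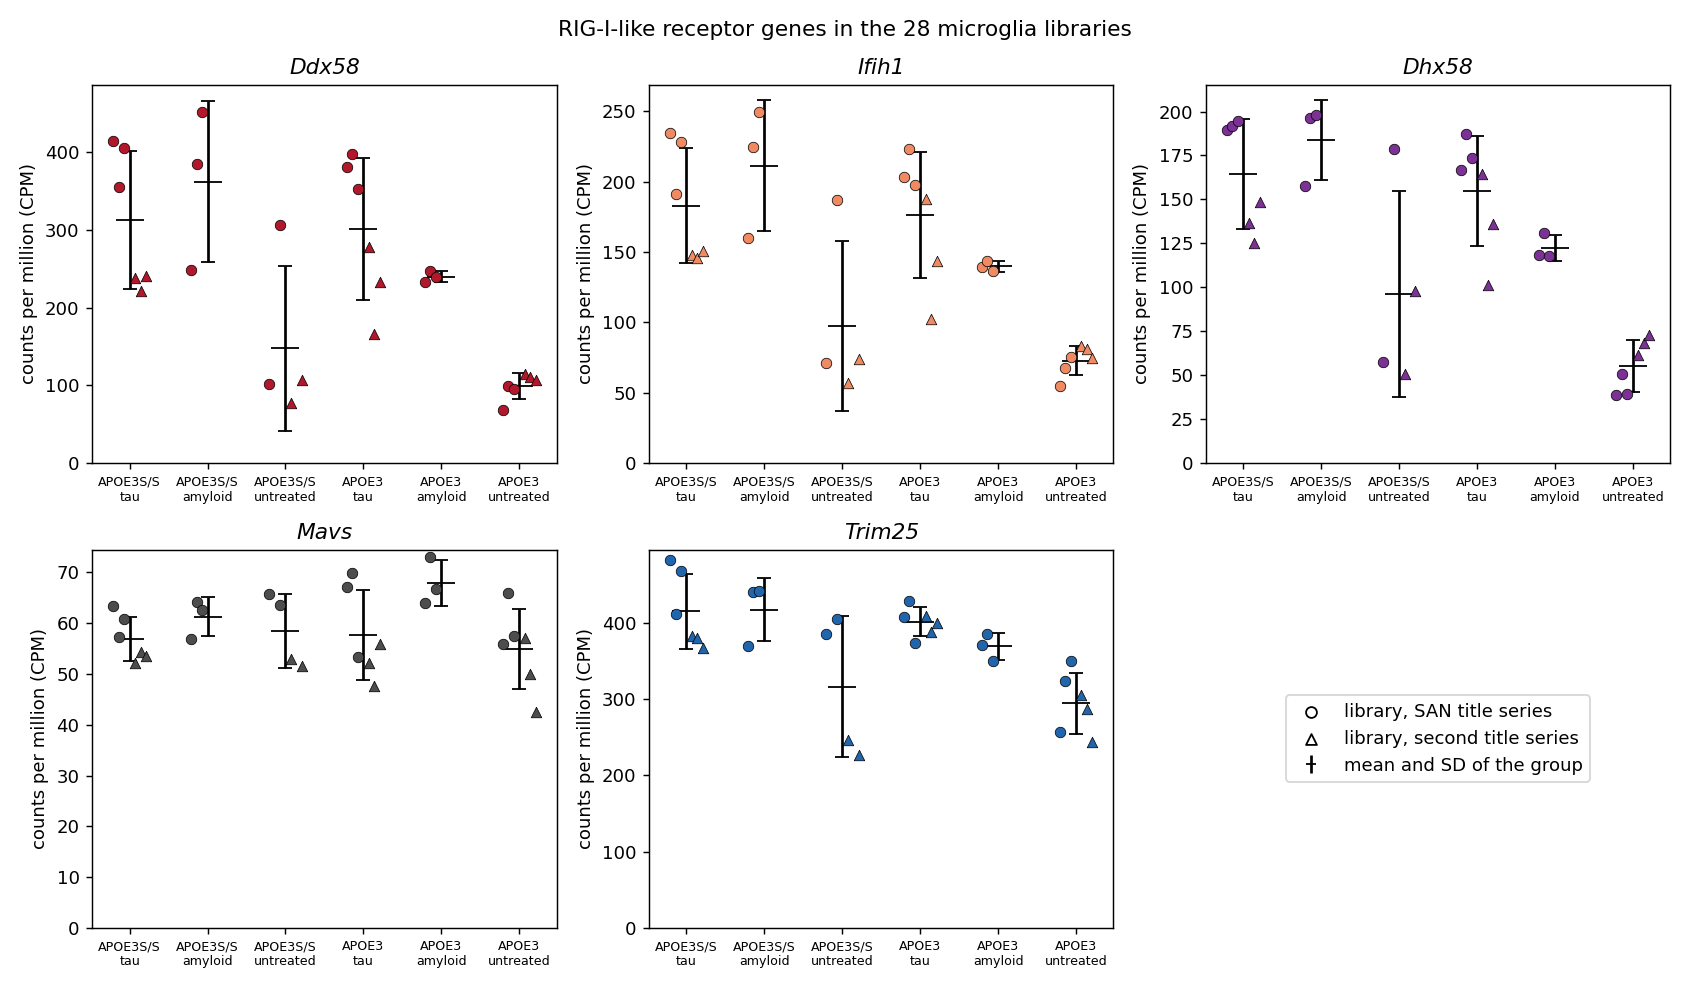
CPM of each RIG-I-like receptor gene in each of the 28 libraries, by group, with circles for the SAN title series, triangles for the second, and bars for the group mean and SD. For Ddx58, Ifih1 and Dhx58 1 APOE3S/S untreated library (306 CPM for Ddx58) lies among the treated ones, the APOE3 tau libraries all lie above the APOE3 untreated ones, and Mavs stays between 42.6 and 73.0 CPM.

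The 3 calls in APOE3S/S cells did not hold in every fit that left out a single library. Of 22 such fits, 17 kept the call of Ddx58, 16 that of Ifih1 and 16 that of Trim25. All 3 calls were lost without untreated library 1, 3 or 4, or without tau library 4 or 6 (edgeR adjusted p from 0.0701 to 0.123 for the 3 genes). Those of Ifih1 and Trim25 were also lost without tau library 2 (0.0535 each). The log2 fold changes behind the lost calls were 0.93 to 1.09 for Ddx58, 0.77 to 0.97 for Ifih1 and 0.34 to 0.47 for Trim25. The 4 calls in APOE3 cells held when any 1 of the 22 libraries was left out, with Ddx58 between 1.40 and 1.65 and Trim25 between 0.44 and 0.54. Monocyte markers summed to 28.8 to 256 CPM in APOE3S/S tau against 12.7 to 156 CPM in APOE3S/S untreated libraries, and to 61.3 to 240.3 CPM in APOE3 tau against 18.0 to 58.8 CPM in APOE3 untreated libraries. By series, the APOE3S/S sums were 184 to 256 CPM in SAN tau against 38.7 and 156 CPM in SAN untreated libraries. In the second series they were 28.8 to 38.0 CPM with tau against 19.0 and 12.7 CPM untreated. Astrocyte markers summed to 39.9 to 65.6 CPM in APOE3S/S tau against 27.2 to 62.0 CPM in APOE3S/S untreated libraries, and to 30.7 to 57.7 CPM in APOE3 tau against 22.3 to 36.3 CPM in APOE3 untreated libraries. Endothelial markers summed to 83.0 to 131 CPM in APOE3S/S tau against 103 to 178 CPM in APOE3S/S untreated libraries, with overlap. APOE3S/S untreated library 4 (103 CPM) lay below the APOE3S/S tau libraries of its series (117 to 131 CPM). In APOE3 cells they were lower with tau, at 102 to 133 CPM against 145 to 249.6 CPM in APOE3 untreated libraries. The part of these marker lists in the members' changes was not tested.

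The difference between the tau effects of the genotypes was itself tested, and no member passed, with 0.0% of 13902 genes called (edgeR; 284 genes and 0 members had an unadjusted p under 0.05, and DESeq2 called 0 genes). As APOE3S/S minus APOE3, the difference was −0.43 ± 0.36 for Ddx58, −0.32 ± 0.32 for Ifih1, −0.72 ± 0.38 for Dhx58, −0.073 ± 0.14 for Trim25 and −0.14 ± 0.11 for Mavs (adjusted p = 1 each). These errors leave room for a difference of either sign for each member. Without APOE3S/S untreated library 2 the difference was 0.049 ± 0.29 for Ddx58, 0.10 ± 0.25 for Ifih1 and −0.27 ± 0.32 for Dhx58. Fitted within the SAN series alone it was −1.213 ± 0.449, −0.955 ± 0.404 and −1.385 ± 0.453 for the same genes. There 3 members and 657 genes had an unadjusted p under 0.05 (edgeR), and 0 genes were called. That fit rests on 2 untreated APOE3S/S libraries, of which library 2 is 1. Within the second series alone the difference was 0.242 ± 0.256, 0.239 ± 0.268 and −0.193 ± 0.331.

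The tau response was then read within each title series. Among APOE3S/S libraries of the SAN series, where 2.5% of genes rose, the tau response was 0.98 ± 0.35 for Ddx58, 0.80 ± 0.31 for Ifih1, 0.74 ± 0.34 for Dhx58 and 0.26 ± 0.14 for Trim25, and no member passed (edgeR adjusted p from 0.148 to 0.339 for these 4, with 2 members at an unadjusted p under 0.05). That fit rests on 2 untreated libraries, of which library 2 is the one that stood apart. Among those of the second series, where 1.64% rose, Ddx58 rose by 1.29 ± 0.20 (edgeR adjusted p = 0.00795), Ifih1 by 1.12 ± 0.21 (0.0175) and Trim25 by 0.62 ± 0.10 (0.0107), while Dhx58 stood at 0.81 ± 0.25 (0.1). The tau effect in the SAN series minus that in the second was −0.32 ± 0.42 for Ddx58 and −0.37 ± 0.15 for Trim25. No member passed this test (edgeR adjusted p = 0.231 for Trim25), and 0.95% of genes did. Without APOE3S/S untreated library 2 the difference was 0.741 for Ddx58, 0.586 for Ifih1 and 1.014 for Dhx58. Without library 1 it was −0.913, −0.878 and −0.687 for the same genes.

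In APOE3 cells the sensors had larger log2 fold changes in the SAN series, a difference that no sensor passed when it was tested with all libraries. Fitted within the SAN series alone, where 11.7% of genes rose, Ddx58 rose by 2.19 ± 0.31, Ifih1 by 1.75 ± 0.28, Dhx58 by 2.13 ± 0.32 and Trim25 by 0.47 ± 0.12 (edgeR adjusted p from 0.000661 to 0.0155). Fitted within the second series alone, where 1.91% rose, Ddx58 rose by 1.05 ± 0.17, Ifih1 by 0.88 ± 0.18, Dhx58 by 1.00 ± 0.22 and Trim25 by 0.53 ± 0.089 (edgeR adjusted p from 0.00963 to 0.0332). The same 4 members were called in each series. Monocyte markers summed to 191 to 240.3 CPM in SAN tau against 24.9 to 58.8 CPM in SAN untreated APOE3 libraries, and to 61.3 to 71.6 CPM in tau against 18.0 to 24.6 CPM in untreated libraries of the second series. Astrocyte markers summed to 45.4 to 57.7 CPM in SAN tau against 28.7 to 36.3 CPM in SAN untreated APOE3 libraries, and to 30.7 to 40.0 CPM in tau against 22.3 to 27.6 CPM in untreated libraries of the second series. Endothelial markers summed to 102 to 119 CPM in SAN tau against 168 to 249.6 CPM in SAN untreated APOE3 libraries, and to 126 to 133 CPM in tau against 145 to 179 CPM in untreated libraries of the second series. The part of these lists in the sensors' change was not tested.

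In CPM, Ddx58 stood at 382, 397 and 352 in the SAN tau libraries of APOE3 cells, against 68.8, 99.7 and 95.4 in the SAN untreated ones. In the second series it stood at 278, 166 and 233 with tau, against 114, 111 and 107 untreated. All 3 SAN tau libraries lay above all tau libraries of the second series, and the SAN untreated libraries lay below those of the second series. The tau effect in the SAN series minus that in the second was 1.13 ± 0.38 for Ddx58 (edgeR adjusted p = 0.0873), 0.85 ± 0.35 for Ifih1 (0.181) and 1.10 ± 0.42 for Dhx58 (0.134). None of the members passed, where 5.61% of genes did, although 3 members and 2653 genes had an unadjusted p under 0.05. DESeq2 called Ddx58, where 1179 of all genes were called in either direction. Without APOE3S/S untreated library 2 all 3 sensors passed (edgeR adjusted p from 0.00425 to 0.0289), with differences of 0.85 to 1.12 and 4.63% of genes called in that direction. For Trim25 the difference was −0.082 ± 0.14, and for Mavs 0.083 ± 0.15.

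**Figure D2:**
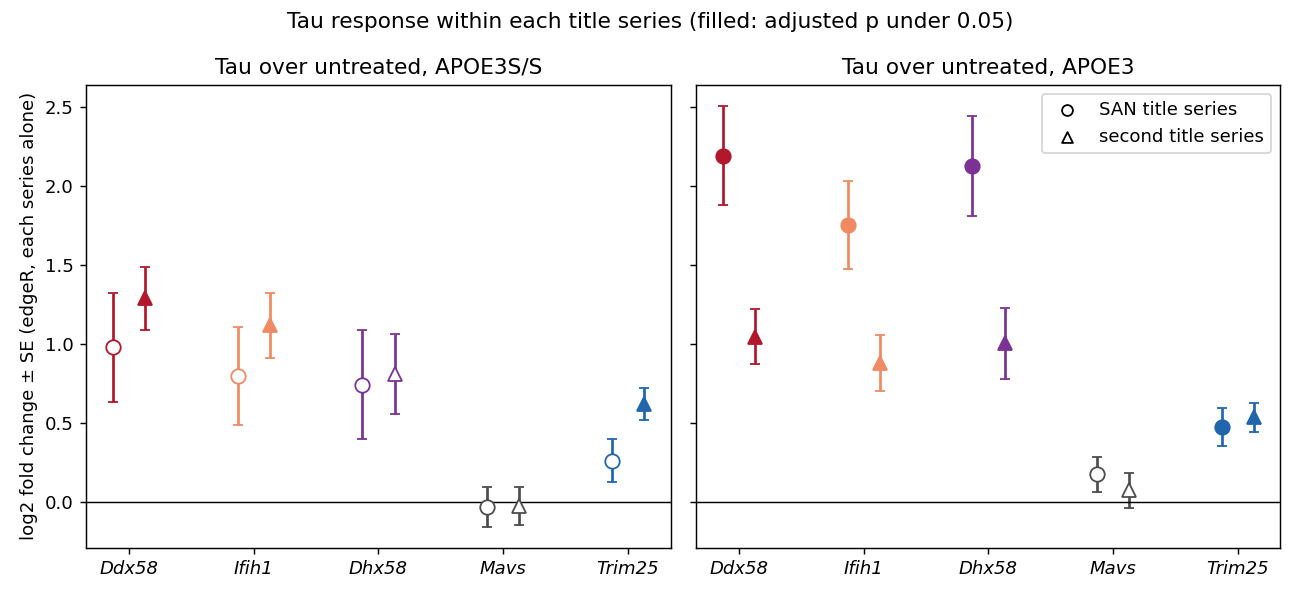
Log2 fold change of tau over untreated for each gene, fitted in each title series alone, with bars for the standard error and filled symbols for an adjusted p under 0.05. The sensors stand at 0.74 to 0.98 in the SAN series and 0.81 to 1.29 in the second in APOE3S/S cells, and at 1.75 to 2.19 in the SAN series and 0.88 to 1.05 in the second in APOE3 cells.

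Untreated APOE3 libraries already differed between the series for many genes, 16.4% of those tested. Among the members the largest such difference was that of Dhx58, with 38.4, 50.8 and 39.5 CPM in the SAN libraries and 61.5, 68.4 and 73.0 CPM in those of the second series, without overlap. Its log2 fold change of SAN over second was −0.74 ± 0.30 (edgeR adjusted p = 0.0984). It was −0.725 without APOE3S/S untreated library 1 or 2, neither of which is in this contrast. Whether Dhx58 passed depended on keeping both of those libraries in the shared estimate. Ddx58 stood at −0.41 ± 0.27, Ifih1 at −0.36 ± 0.25, Trim25 at 0.073 ± 0.098 and Mavs at 0.18 ± 0.11, and none of these passed.

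Amyloid was given in the SAN series only, and its comparison with the untreated libraries of that series shares those untreated libraries with the tau comparison. For APOE3S/S cells it rests on 2 untreated libraries. Ddx58 had 249, 385 and 452 CPM with amyloid, against 102 and 306 CPM untreated, Ifih1 160.0, 225 and 249.8 CPM against 71.2 and 187 CPM, and Dhx58 158, 196 and 198 CPM against 57.6 and 178 CPM. For each sensor the first amyloid library lay between the untreated libraries. Log2 fold changes were 0.85 ± 0.39, 0.74 ± 0.33 and 0.67 ± 0.36 for Ddx58, Ifih1 and Dhx58, 0.12 ± 0.14 for Trim25 and −0.028 ± 0.11 for Mavs. No member and 0.0% of genes passed (edgeR; 1181 genes, and among the members Ddx58 and Ifih1, had an unadjusted p under 0.05, and DESeq2 called 2 genes and no member).

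Without APOE3S/S untreated library 2, Ddx58 stood at 1.92 ± 0.30 (edgeR adjusted p = 0.00664), Ifih1 at 1.67 ± 0.24 (0.00429) and Dhx58 at 1.77 ± 0.20 (0.00139), and 2.41% of genes rose. That fit has a single untreated APOE3S/S library, which is assumed to vary like the other groups. Without library 1 instead, the values were 0.25 ± 0.27 for Ddx58, 0.18 ± 0.22 for Ifih1 and 0.051 ± 0.18 for Dhx58, with no call. So 1 or the other untreated library decides the size.

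In APOE3 cells all 3 amyloid libraries lay above the 3 untreated ones for each sensor. Ddx58 had 233, 247 and 239 CPM with amyloid, against 68.8, 99.7 and 95.4 CPM untreated, a log2 fold change of 1.44 ± 0.34. Ifih1 had 139, 144 and 136 CPM, against 54.8, 67.5 and 75.7 CPM, a change of 1.08 ± 0.30. Dhx58 had 118, 131 and 118 CPM, against 38.4, 50.8 and 39.5 CPM, a change of 1.501 ± 0.32. The amyloid libraries were close to each other for all 3 genes.

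Trim25 with amyloid had 371, 385 and 351 CPM in APOE3 cells, against 257, 323 and 351 CPM untreated, with the lowest amyloid library barely above the highest untreated one (0.24 ± 0.12), and Mavs had 64.1, 73.0 and 66.7 CPM, against 55.9, 66.0 and 57.5 CPM, with overlap (0.17 ± 0.097). No member and 0.0% of the 13864 genes tested passed in the fit of all 11 untreated and amyloid SAN libraries (edgeR adjusted p = 0.212 for each sensor), although 1821 genes and the 3 sensors had an unadjusted p under 0.05. Other fits gave other calls. DESeq2 called all 3 sensors, with 1.64% of genes risen, and so did edgeR on the amyloid and untreated APOE3 libraries alone, with 3.63% risen. A fit over all 17 SAN libraries called Ddx58 and Dhx58, with 0.7% risen. Leaving APOE3S/S untreated library 1 or 2, which are not in this contrast, out of the shared estimate also gave calls for all 3 sensors (2.01% and 2.0% of genes risen), with the standard error for Ddx58 at 0.19 in place of 0.34. Monocyte markers summed to 98.7 to 134 CPM with amyloid, against 24.9 to 58.8 CPM in the SAN untreated libraries, and astrocyte markers to 43.0 to 67.7 CPM against 28.7 to 36.3 CPM. Their part in the sensors' levels was not tested.

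The difference between the amyloid effects of the genotypes, APOE3S/S minus APOE3, was −0.59 ± 0.50 for Ddx58, −0.34 ± 0.44 for Ifih1 and −0.84 ± 0.47 for Dhx58. It was −0.12 ± 0.18 for Trim25 and −0.20 ± 0.14 for Mavs. No member and 0.0% of genes passed (edgeR; 514 genes and 0 members at an unadjusted p under 0.05, 0 genes by DESeq2). Without APOE3S/S untreated library 2 the difference was 0.481 for Ddx58, 0.592 for Ifih1 and 0.274 for Dhx58. Without library 1 it was −1.193, −0.893 and −1.447 for the same genes.

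Tau and amyloid were set against each other within the SAN series. The APOE3S/S libraries of the 2 treatments overlapped for every member. Ddx58 had 415, 355 and 406 CPM with tau, against 249, 385 and 452 CPM with amyloid (0.12 ± 0.29). The other log2 fold changes of tau over amyloid there ran from −0.017 for Mavs to 0.13 for Trim25, and no member passed, where 0.149% of genes did (edgeR; 0 members had an unadjusted p under 0.05 and DESeq2 called 0 members).

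In APOE3 cells Ddx58 had 382, 397 and 352 CPM with tau, against 233, 247 and 239 CPM with amyloid, and Ifih1 had 204, 223 and 198 CPM, against 139, 144 and 136 CPM. Dhx58 had 167, 187 and 174 CPM with tau, against 118, 131 and 118 CPM with amyloid. For these 3 genes every tau library lay above every amyloid library. The log2 fold changes of tau over amyloid were 0.74 ± 0.29 for Ddx58 (edgeR adjusted p = 0.13), 0.66 ± 0.25 for Ifih1 (0.122), 0.61 ± 0.27 for Dhx58 (0.176), 0.21 ± 0.11 for Trim25 (0.249) and −0.010 ± 0.098 for Mavs (0.968). No member passed in the fit of 17 libraries, where 7.31% of 14136 genes did, while the 3 sensors had an unadjusted p under 0.05 and DESeq2 called 0 members.

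On the tau and amyloid APOE3 libraries alone, all members but Mavs were higher with tau by the test, Ddx58 at 0.73 ± 0.060 (edgeR adjusted p = 1.88e-06) and Trim25 at 0.21 ± 0.065 (0.031), with 15.1% of genes higher. Without APOE3S/S untreated library 2 the 17-library fit called the 3 sensors (edgeR adjusted p from 0.00356 to 0.00952), with 6.55% of genes higher, and without library 1 it called them as well.

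APOE3S/S and APOE3 microglia were then compared under the same treatment. With tau the genotypes overlapped for all members over both title series, for example at 313 ± 89.3 CPM for Ddx58 in APOE3S/S cells and 301 ± 91.4 CPM in APOE3 cells (SD, n = 6 each). Within the SAN series all APOE3S/S tau libraries were above the APOE3 ones for Dhx58 (189 to 195 CPM against 167 to 187 CPM), and within the second series all were below for Trim25 (367 to 383 CPM against 389 to 409.6 CPM). The log2 fold changes of APOE3S/S over APOE3 were 0.041 ± 0.24 for Ddx58, 0.038 ± 0.21 for Ifih1, 0.072 ± 0.25 for Dhx58, 0.029 ± 0.096 for Trim25 and −0.026 ± 0.072 for Mavs. No member and 0.0144% of genes passed (edgeR; 0 members had an unadjusted p under 0.05 and DESeq2 called 0 members).

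With amyloid, all 3 APOE3S/S libraries were above all 3 APOE3 libraries for each sensor. Mean levels in APOE3S/S and APOE3 cells were 362 ± 104 CPM and 240.0 ± 6.75 CPM for Ddx58, 211 ± 46.4 CPM and 139.9 ± 3.69 CPM for Ifih1, and 184 ± 22.7 CPM and 122 ± 7.43 CPM for Dhx58 (SD, n = 3 each). The APOE3S/S libraries were more spread out. Log2 fold changes of APOE3S/S over APOE3 were 0.68 ± 0.34 for Ddx58 (edgeR adjusted p = 0.44), 0.68 ± 0.29 for Ifih1 (0.4), 0.68 ± 0.32 for Dhx58 (0.417), 0.27 ± 0.12 for Trim25 (0.413) and −0.058 ± 0.097 for Mavs. No member and 0.0% of genes passed, while Ifih1 and Trim25 had an unadjusted p under 0.05 and DESeq2 called 59 genes and no member. Dhx58 passed without APOE3S/S untreated library 1 or 2 (0.68 ± 0.13, edgeR adjusted p = 0.0424 for the second, with 0.672% of genes higher) and in the fit of the 6 amyloid libraries alone (0.68 ± 0.10, 0.0249). In that fit of the 6 amyloid libraries, 352 of all genes were called in either direction. Monocyte markers were also higher with the APOE3S/S genotype, at 155 to 233 CPM in APOE3S/S against 98.7 to 134 CPM in APOE3 amyloid libraries. Endothelial markers were lower, at 96.4 to 122 CPM in APOE3S/S against 174 to 211 CPM in APOE3 amyloid libraries. Fibroblast markers were lower too, at 0.599 to 1.65 CPM in APOE3S/S against 5.21 to 44.1 CPM in APOE3 amyloid libraries. So were oligodendrocyte markers, at 108 to 115 CPM in APOE3S/S against 125 to 136 CPM in APOE3 amyloid libraries. The part of these lists in the difference was not tested.

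Untreated APOE3S/S and APOE3 libraries were compared last. Ddx58 had 102, 306, 76.8 and 106 CPM in the 4 APOE3S/S libraries, against 68.8 to 114 CPM in the 6 APOE3 libraries, so that only APOE3S/S library 2 lay outside the range set by the other libraries by a wide margin. Dhx58 had 57.6, 178, 50.8 and 98.1 CPM, against 38.4 to 73.0 CPM, with APOE3S/S libraries 2 and 4 above all APOE3 libraries. The log2 fold changes were 0.47 ± 0.27 for Ddx58, 0.36 ± 0.24 for Ifih1, 0.79 ± 0.28 for Dhx58 (edgeR adjusted p = 0.641), 0.10 ± 0.11 for Trim25 and 0.12 ± 0.080 for Mavs. No member passed, where 0.00719% of genes did (edgeR; Dhx58 alone had an unadjusted p under 0.05 and DESeq2 called 0 members).

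The series went apart in the untreated comparison. Within the SAN series the differences were 1.27 ± 0.33 for Ddx58, 1.02 ± 0.30 for Ifih1 and 1.51 ± 0.34 for Dhx58 (edgeR adjusted p from 0.323 to 0.377). Within the second series they were −0.22 ± 0.19, −0.23 ± 0.20 and 0.20 ± 0.25 for the same genes, so that the first 2 turned sign. Without APOE3S/S untreated library 2 the pooled values were −0.005 ± 0.23 for Ddx58, −0.062 ± 0.20 for Ifih1 and 0.35 ± 0.25 for Dhx58.

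**Figure D3:**
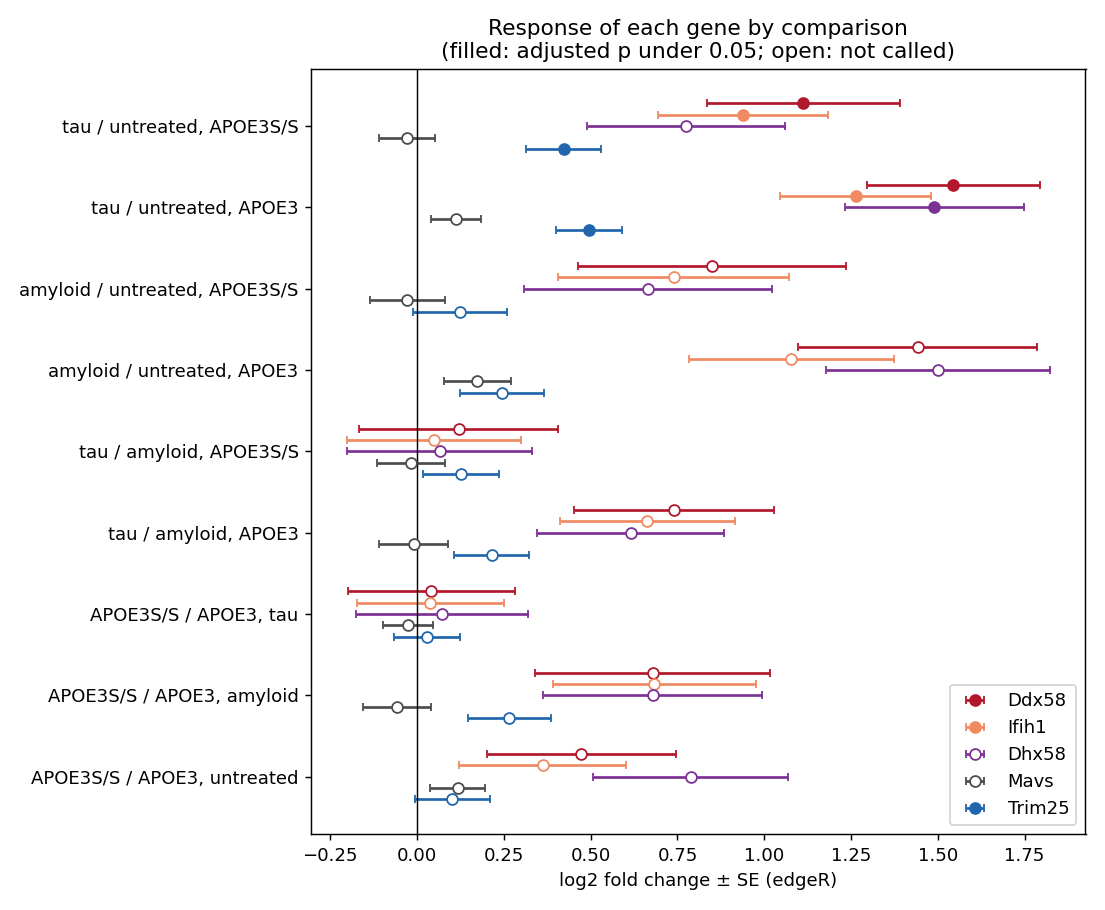
Log2 fold change ± standard error of each RIG-I-like receptor gene in 9 comparisons, with the numerator named first and filled symbols for an edgeR adjusted p under 0.05. Filled symbols occur only in the tau against untreated comparisons, and Mavs lies between −0.058 and 0.17 in all 9.

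The members did not vary alike over the 28 libraries. Log2 CPM of Ddx58 correlated with that of Ifih1 at r = 0.995, of Dhx58 at 0.962, of Trim25 at 0.872 and of Mavs at 0.478. The points share treatment, genotype and title series, so these values carry no p. After the mean of each of the 10 combinations of genotype, treatment and title series was taken away, Ddx58 still followed Ifih1 (0.979) and Dhx58 (0.903), while the values were 0.561 with Trim25 and 0.332 with Mavs. Trim25 and Mavs had 0.601 with each other. A library with much Ddx58 thus also had much Ifih1 and Dhx58, APOE3S/S untreated library 2 included.

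**Figure D4:**
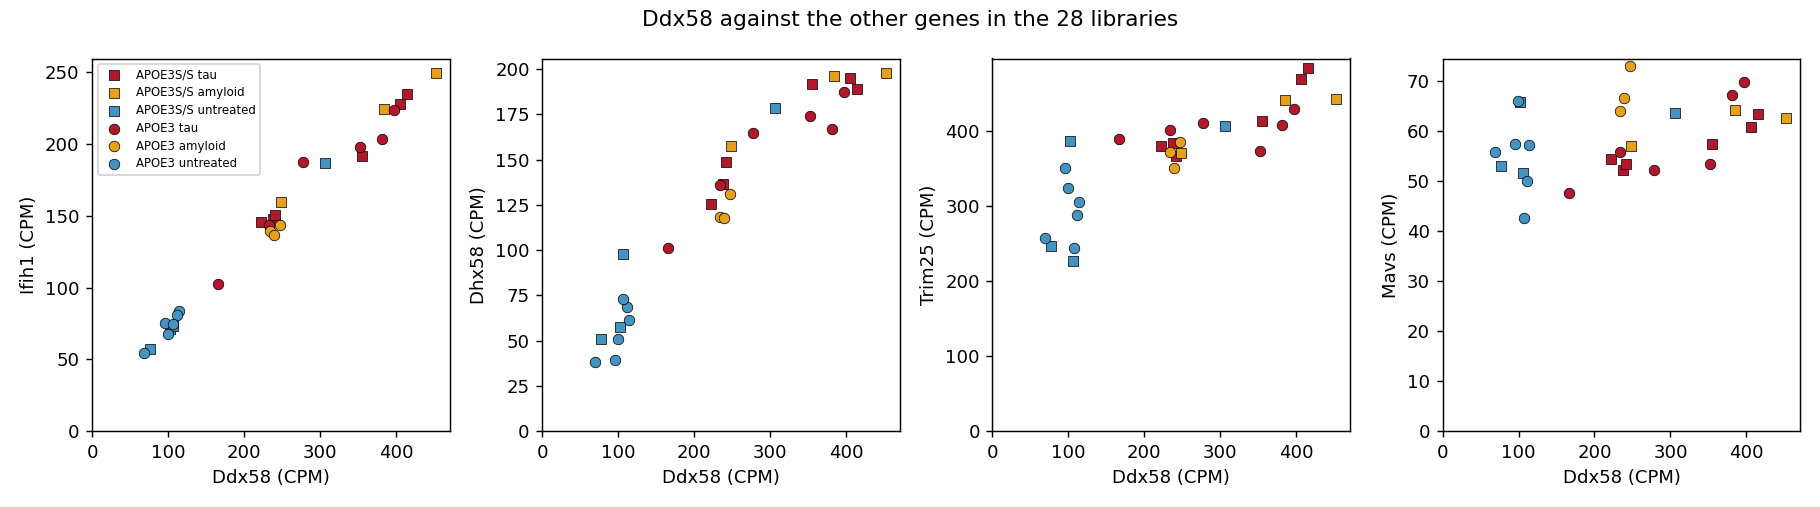
CPM of Ifih1, Dhx58, Trim25 and Mavs against those of Ddx58, with 1 point for each of the 28 libraries, squares for APOE3S/S and circles for APOE3. Ifih1 follows Ddx58 almost along a line (r = 0.995 on log2 CPM), Trim25 levels off, and Mavs shows no steady course.

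Among 9746 genes with a mean of at least 5 CPM, those most like Ddx58 over the 28 libraries were Herc6 (r = 0.995), Slfn8 (0.995) and Irgm2 (0.992). The same genes were the most like Ifih1, at 0.996 for Herc6, 0.994 for Slfn8 and 0.990 for Irgm2. For Dhx58 they were Zbp1 (0.994), Gm12250 (0.992) and Ifit2 (0.991). Trim25 was most like Xylt2 (0.927), Helz2 (0.923) and Arel1 (0.921), and Mavs most like Jak3 (0.870), Sipa1 (0.866) and Fam53b (0.865). The likeness is over libraries that share treatment and title series and is a description with no p.

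Of 98 tested genes on 6 lists of the surrounding pathway, 9 rose and none fell with tau in APOE3S/S cells, and 41 rose and 4 fell in APOE3 cells. Of all 13902 genes tested, 295 (2.12%) rose among 454 called in APOE3S/S cells. In APOE3 cells 1247 (8.97%) rose among 2063 called. The counts on each list are to be read against these shares. The 9 rises depended on single libraries. Without APOE3S/S untreated library 2 there were 29, where 4.33% of all genes rose. There were 0 without untreated library 1, 4 without library 3 and 3 without library 4. Leaving out an APOE3S/S tau library gave 0 (library 6), 2 (library 4), 5 (library 2) or 6 to 9 rises (the others). Over all genes, 36 to 835 were called in APOE3S/S cells when any 1 library was left out. DESeq2 called 20, the fit without the filter on low counts 30, the SAN series alone 5, the second series alone 15 and the fit with no term for title series 0. In the same order, 956, 1439, 635, 329 and 0 of all genes were called in either direction. In APOE3 cells 39 to 42 rose when any 1 library was left out, where 1547 to 2378 of all genes were called. There were 45 in the SAN series alone (11.7% of all genes risen) and 15 in the second series alone (1.91%). With no term for title series 28 rose, where 845 of all genes were called. The median log2 fold change of all genes was −0.012 in APOE3S/S and −0.019 in APOE3 cells. Of 17 cofactors that help the sensors, 2 rose in APOE3S/S cells (median −0.006), and 3 rose and 1 fell in APOE3 cells (median 0.017). Among them Ddx60, a helicase gene, rose by 1.20 ± 0.31 (edgeR adjusted p = 0.0396) in APOE3S/S and 1.79 ± 0.28 (0.000291) in APOE3 cells. Zc3hav1, the gene of the RNA-binding antiviral protein ZAP, rose by 0.51 ± 0.13 (0.0383) in APOE3S/S and 0.60 ± 0.12 (0.0013) in APOE3 cells. Rnf135, which encodes Riplet, another ubiquitin ligase of RIG-I, stood at 0.32 ± 0.11 (0.123) in APOE3S/S cells and rose by 0.42 ± 0.10 (0.00681) in APOE3 cells.

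Inhibitors of the sensors and of MAVS had medians near 0. Of 22 tested of 23, 1 rose in APOE3S/S cells (median 0.11), and 3 rose and 2 fell in APOE3 cells (median 0.091). Usp3, a deubiquitinase gene, rose by 0.26 ± 0.064 (edgeR adjusted p = 0.0347) in APOE3S/S and 0.30 ± 0.057 (0.00102) in APOE3 cells. Smurf1, a ubiquitin ligase gene, stood at 0.42 ± 0.13 (0.0776) in APOE3S/S cells and rose by 0.48 ± 0.12 (0.00702) in APOE3 cells. Ndfip1, which encodes an adaptor of such ligases, stood at −0.22 ± 0.089 (0.165) in APOE3S/S cells and fell by 0.33 ± 0.080 on the log2 scale (0.00625) in APOE3 cells.

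Downstream of MAVS, whose own gene did not pass, 3 of 24 tested signalling genes (25 listed) rose in APOE3S/S cells (median 0.16), and 11 rose and none fell in APOE3 cells (median 0.18). Azi2, which encodes an adaptor of TBK1, stood at 0.47 ± 0.14 (edgeR adjusted p = 0.0585) in APOE3S/S cells and rose by 0.68 ± 0.12 (0.000693) in APOE3 cells. Ikbke, the gene of the kinase IKKε, had 0.71 ± 0.21 (0.0681) in APOE3S/S and 0.98 ± 0.19 (0.00133) in APOE3 cells. Irf7, the gene of a transcription factor that amplifies interferon production, had 0.93 ± 0.45 (0.257) in APOE3S/S and 2.06 ± 0.41 (0.00158) in APOE3 cells.

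Of 20 genes of other RNA sensing routes, 1 rose in APOE3S/S cells (median 0.42), and 13 rose and 1 fell in APOE3 cells (median 0.60). Eif2ak2 encodes the double-stranded RNA kinase PKR, the product of Ifit1 binds RNA with incomplete caps, and Pnpt1 encodes a mitochondrial ribonuclease. With tau in APOE3S/S cells they had 0.71 ± 0.20 (edgeR adjusted p = 0.0525) for Eif2ak2, 1.45 ± 0.50 (0.111) for Ifit1 and 0.46 ± 0.13 (0.0601) for Pnpt1, none of which passed. In APOE3 cells Eif2ak2 rose by 0.96 ± 0.18 (edgeR adjusted p = 0.000954), Ifit1 by 2.52 ± 0.46 (0.000872) and Pnpt1 by 0.64 ± 0.12 (0.000927).

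Output genes of the pathway had the highest medians of the 6 lists. Of 9 tested of 13, 2 rose in APOE3S/S cells (median 1.33) and 8 in APOE3 cells (median 2.64). Cxcl10, a chemokine gene, rose by 2.52 ± 0.66 (edgeR adjusted p = 0.0392) in APOE3S/S and 3.99 ± 0.66 (0.000396) in APOE3 cells. Ccl5, another chemokine gene, stood at 1.99 ± 0.61 (0.0724) in APOE3S/S cells and rose by 3.30 ± 0.57 (0.00053) in APOE3 cells. Isg15, the gene of a ubiquitin-like modifier, stood at 1.24 ± 0.53 (0.194) in APOE3S/S cells and rose by 2.53 ± 0.49 (0.00126) in APOE3 cells. These and many of the other listed genes are known to respond to interferon and to other sensors as well.

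Ifnb1, the gene of interferon beta, had few counts. Among APOE3S/S libraries 62 counts were found over the 6 tau libraries (1 to 25 each), 33 over the 3 amyloid libraries (8 to 14 each) and 23 over the 4 untreated libraries, of which 19 came from 1 library and 2 libraries had 0. In APOE3 cells 46 counts were found over the 6 tau libraries (0 to 17 each), 12 over the 3 amyloid libraries (1 to 7 each) and 0 over the 6 untreated libraries, which allows up to 0.0275 CPM over that group (3 counts, counting error only). APOE3S/S untreated library 2, which stood apart for the sensors, had 0.28 CPM of Ifnb1, and untreated library 4 had 0.71 CPM.

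Among 6 genes of interferon receptor signalling, none passed in APOE3S/S cells (median 0.22) and 3 rose in APOE3 cells (median 0.265). Tyk2 encodes a kinase at the receptor, and the products of Stat2 and Irf9 take the signal to the nucleus. In APOE3S/S cells they stood at 0.92 ± 0.28 (edgeR adjusted p = 0.076) for Stat2, 0.21 ± 0.089 (0.202) for Irf9 and 0.30 ± 0.12 (0.179) for Tyk2. In APOE3 cells Stat2 rose by 1.375 ± 0.26 (edgeR adjusted p = 0.000905), Irf9 by 0.36 ± 0.080 (0.00365) and Tyk2 by 0.49 ± 0.11 (0.00397).

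With amyloid no gene of the 6 lists was called in either genotype in the edgeR fit of 11 libraries, in which no gene passed at all. In other fits of the APOE3 comparison listed genes rose. All 17 SAN libraries gave 12 (0.7% of all genes risen), DESeq2 16 (1.64%) and the 2 compared groups alone 20 (3.63%). The fit with no filter on low counts gave 24, where 1007 of all genes were called. For APOE3S/S cells 20 rose without the filter, where 664 of all genes were called. In the fit of 11 libraries the median log2 fold change of the output genes was 1.15 in APOE3S/S and 2.17 in APOE3 cells. That of the cofactors was 0.079 in APOE3S/S and −0.028 in APOE3 cells. Against amyloid, no listed gene passed in APOE3S/S cells, and tau raised 9 of the 98 tested genes in APOE3 cells, where 4.11% of all genes were higher, among them Cxcl10 (2.49 ± 0.66, edgeR adjusted p = 0.0342) and Ccl5 (2.69 ± 0.72, 0.0362). That count was 1 without any 1 of the APOE3 amyloid libraries or without APOE3 tau library 5 or 6, 5 without APOE3 tau library 4, and 26 without APOE3S/S untreated library 1 or 2.

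**Figure D5:**
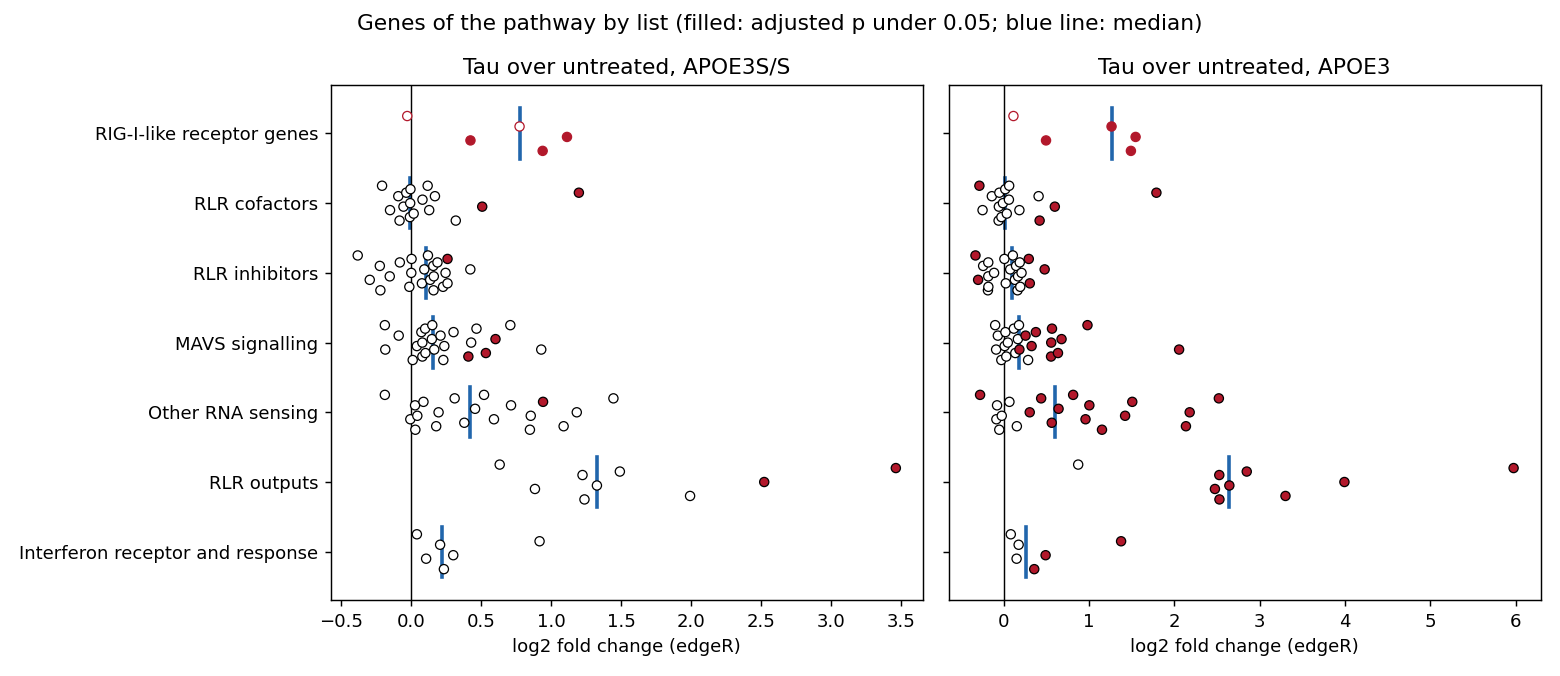
Log2 fold change of tau over untreated for the 5 members and the genes of 6 pathway lists in each genotype, with 1 point per gene, filled for an edgeR adjusted p under 0.05, and a blue line at each list's median. Output genes have the highest medians (1.33 in APOE3S/S and 2.64 in APOE3 cells), and the medians of cofactors and inhibitors lie near 0.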

How the data were processed

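Per the labels' protocols, RNA of cultured microglia was made into QuantSeq 3′ forward libraries. The authors deposited unnormalised gene counts as whole numbers in 2 tables, with 5 untreated libraries in both, whose values agreed exactly and entered once. The build GRCm38 (mm10) and DESeq2 1.38.3 are named per the submitters' processing notes. Neither aligner nor counter is given in the sources used here. Of 60976 rows per table, 6360 without numbers (25 of them also without a name), 81 exact repeats, 12 rows of 3 ambiguous symbols and 99 repeats of a symbol were left out, which leaves 54424. In 57 pairs of libraries within a group the squared difference was 4.23 to 159 times the counting variance, so none was a copy.

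Counts were tested with edgeR 4.0.16 (R 4.3.3), using TMM scaling, filterByExpr by group, glmQLFit and glmQLFTest. Tau contrasts took 22 libraries and a title series term, amyloid contrasts 11 and tau against amyloid 17 SAN libraries, and contrasts between title series 1 mean for each genotype, treatment and series. CPM values are counts over the library total times 1000000. Means ± SD describe libraries, and intervals or floors cover counting error only. Alternatives were RLE scaling, no filter, a filter at 10 CPM, DESeq2 1.42.0, removal of each library, each title series alone, no series term, the 2 compared groups alone, all 17 SAN libraries for amyloid and a block for title number. Named genes are the members, the 3 with the smallest p in each list in tau against untreated APOE3, Ifnb1 and the 3 most like each member (mean CPM of 5 or more). The members, the lists, written from general knowledge, and the tests were chosen with earlier results of these data known. A few listed genes are not reported here. Promoters of 4 members were found in RefSeq's table for GRCm38.p6 (Ddx58, Ifih1, Trim25 and Mavs).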

Additional observations from a re-analysis of the deposited data

Results flagged for a closer look

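APOE3S/S untreated library 2 was far from the other libraries of its group for 2 members. It had 306 CPM of Ddx58, against 102, 76.8 and 106 CPM in untreated APOE3S/S libraries 1, 3 and 4. It had 187 CPM of Ifih1, against 71.2, 57.2 and 73.6 CPM in the same libraries. The gap to the nearest library was 0.871 of the range of the group for Ddx58 and 0.874 for Ifih1, above the critical value of 0.829 for 4 samples. Chance alone gives such a gap in about 1 in 20 groups, and the 2 genes are not separate evidence, since they follow each other closely over all libraries. For Dhx58 the library had 178 CPM, with a gap of 0.629 of the range, below the critical value. Its monocyte markers summed to 156 CPM, against 38.7, 19.0 and 12.7 CPM in libraries 1, 3 and 4, and whether they have a part in its sensor levels was not tested.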

How the results depend on the processing

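Alternatives kept the direction and the side of the threshold in 1590 of the member log2 fold changes recomputed, while 61 were newly called, 24 lost their call and 40 turned sign, all of the last without a call before. In APOE3 cells the 4 rises with tau stayed called under each alternative run. In APOE3S/S cells the 3 calls with tau fell to 0 in the SAN title series alone and to 0 with no term for title series, numbered 2 with the 2 compared groups alone, where Ifih1 was not called, and 4 without the filter on low counts, and leaving out 1 library gave 0 to 4 calls. Without the filter on low counts, members called numbered 3 for amyloid over untreated in APOE3, 3 for the same in APOE3S/S, 3 for APOE3S/S over APOE3 with amyloid, 2 for the same untreated, 3 for tau over amyloid in APOE3, 3 for the SAN minus second series tau effect in APOE3, 1 for the tau effect between genotypes and 2 for SAN over second series in untreated APOE3, against 0 each with the filter. Over all genes, those fits without the filter called 1007, 664, 740, 343, 1891, 1397, 149 and 2410 in either direction, in the same order. DESeq2 called 3 members for amyloid over untreated in APOE3 (289 of all genes) and 1 for the SAN minus second series tau effect in APOE3 (1179). The 2 compared groups alone gave 3 for amyloid over untreated in APOE3, 1 for APOE3S/S over APOE3 with amyloid and 4 for tau over amyloid in APOE3. In the same order, 575, 352 and 3644 of all genes were called. All 17 SAN libraries gave 2 for amyloid over untreated in APOE3, where 118 of all genes were called. Leaving out 1 library gave 0 to 3 members for amyloid over untreated in either genotype, tau over amyloid in APOE3 and the SAN minus second series tau effect in APOE3, and 0 to 1 for APOE3S/S over APOE3 with amyloid and SAN over second series in untreated APOE3. The cause of these moves was not tested.

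Signs turned in the second title series alone for APOE3S/S over APOE3 untreated (−0.220 for Ddx58, −0.235 for Ifih1 and −0.191 for Trim25), for the tau effect in APOE3S/S minus that in APOE3 (0.242 for Ddx58, 0.239 for Ifih1 and 0.083 for Trim25) and for APOE3S/S over APOE3 with tau (0.015 for Mavs and −0.108 for Trim25). Leaving out 1 library also turned signs, over the following ranges of log2 fold change. For APOE3S/S over APOE3 with tau they were −0.057 to 0.091 (Ddx58), −0.061 to 0.121 (Ifih1), −0.020 to 0.133 (Dhx58), −0.062 to 0.013 (Mavs) and −0.008 to 0.068 (Trim25). For APOE3S/S over APOE3 untreated they were −0.005 to 0.651 (Ddx58), −0.062 to 0.520 (Ifih1) and −0.006 to 0.183 (Trim25). For the tau effect in APOE3S/S minus that in APOE3 they were −0.608 to 0.049 (Ddx58), −0.481 to 0.104 (Ifih1) and −0.150 to 0.039 (Trim25). For amyloid over untreated in APOE3S/S it was −0.060 to 0.013 (Mavs). For the amyloid effect in APOE3S/S minus that in APOE3 they were −1.193 to 0.481 (Ddx58), −0.893 to 0.592 (Ifih1) and −1.447 to 0.274 (Dhx58). For tau over amyloid in APOE3 it was −0.080 to 0.086 (Mavs). For tau over amyloid in APOE3S/S they were −0.079 to 0.311 (Ddx58), −0.106 to 0.184 (Ifih1), −0.022 to 0.120 (Dhx58) and −0.054 to 0.016 (Mavs). For the SAN minus second series tau effect in APOE3 it was −0.015 to 0.176 (Mavs). For the SAN minus second series tau effect in APOE3S/S they were −0.913 to 0.741 (Ddx58), −0.878 to 0.586 (Ifih1), −0.687 to 1.014 (Dhx58) and −0.050 to 0.006 (Mavs). For SAN over second series in untreated APOE3 it was −0.003 to 0.171 (Trim25).

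Counts over all genes moved as well. For tau over untreated, 2063 genes were called in APOE3 (845 with no term for title series, 372 in the second series alone) and 454 in APOE3S/S (956 by DESeq2, 1439 without the filter, 260 with the 2 groups alone, 0 with no term for title series, 36 to 835 without 1 library). For amyloid over untreated 0 were called in APOE3 (289 by DESeq2, 575 with the 2 groups alone, 118 with all 17 SAN libraries, 1007 without the filter, 0 to 322 without 1 library) and 0 in APOE3S/S (2 by DESeq2, 664 without the filter, 0 to 425 without 1 library). For tau over amyloid 1034 were called in APOE3 (1592 by DESeq2, 3644 with the 2 groups alone, 1891 without the filter, 61 to 1608 without 1 library) and 21 in APOE3S/S (159 by DESeq2, 2 with the 2 groups alone, 487 without the filter, 0 to 452 without 1 library). For APOE3S/S over APOE3 the counts were 2 with tau (8 in the second series alone, 0 with a filter at 10 CPM, 1 with the replicate block, 42 without the filter), 1 untreated (5 by DESeq2, 4 in the second series alone, 0 in the SAN series alone, 0 with a filter at 10 CPM, 343 without the filter, 1 to 5 without 1 library) and 0 with amyloid (59 by DESeq2, 352 with the 2 groups alone, 740 without the filter, 0 to 111 without 1 library). The SAN minus second series tau effect had 780 in APOE3 (1179 by DESeq2, 1397 without the filter) and 132 in APOE3S/S (442 by DESeq2, 769 without the filter, 2 to 1591 without 1 library). Without the filter the tau effect between genotypes had 149 and the amyloid effect 76, against 0 each.

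APOE3S/S and APOE3 libraries of a title series and treatment share numbers in their titles. Deviations of same-numbered libraries correlated at −0.067 to 0.085 over 6 tau pairs, −0.118 to 0.174 over 4 untreated pairs and 0.030 to 0.146 over 3 amyloid pairs, so the numbers were not taken to pair the samples. With the replicate block, 0 members were called in each genotype comparison and in each difference between genotypes, as without it. Members had 599 to 10632 counts per library, so that depth limits them little, whereas the few counts of Ifnb1 allow no comparison between single libraries.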
